A study of Mus musculus with 4 samples.

Results

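Knockout tibialis anterior (TA), a fast-twitch muscle at the front of the lower leg, was compared with wild-type TA over all genes that the array reads with a probe set annotated to 1 gene. There were 18193 such genes, of which 11556 were measured in TA, against 12191 measured on at least 1 of the 4 arrays of the series. A gene was measured where at least 1 of the TA arrays reached a floor of 101.3, the median of all signals, and lower signals were raised to that floor before a ratio was taken. A fold of a single gene that rests on a raised signal is written "at least", which applied to 724 of the measured genes. The probe set with the highest mean log2 signal over the 4 arrays stood for a gene that had several.

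The knockout group was TA of MG56-knockout mice at postnatal day 9, of the C57BL/6J strain, and the control was TA of wild-type mice of that strain and age. RNA of 3 knockout mice was mixed before it was hybridised. Wild-type RNA was mixed as well, but the sources used here do not say from how many mice. They describe neither the knockout allele further nor the sex of the mice. The heart of both genotypes was measured in the same way. Its arrays count towards the floor and the choice of probe set, and otherwise heart values are only set beside those of TA. Each group is therefore 1 array of pooled RNA with no replicate. Ratios compare pools and not populations of mice, and no p-value, SD or interval can be given.

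MG56 is a name of Hhatl, which encodes a protein of reticulum membranes in striated muscle and belongs by sequence to the membrane-bound O-acyltransferases. The endoplasmic reticulum (ER) folds secreted and membrane proteins. When unfolded proteins gather there, the sensors Ern1, Atf6 and Eif2ak3 start the unfolded protein response, which raises transcription of chaperones and degradation factors, while phosphorylation of the translation factor eIF2 lets the transcription factor ATF4 act on amino acid synthesis and transport genes, a branch called the integrated stress response. In muscle the sarcoplasmic reticulum is a specialised part of the same membrane system and stores the calcium for contraction. At postnatal day 9 mouse muscle is still growing, and satellite cells and other mononuclear cells of the tissue are dividing.

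The 2 TA arrays shared a scale as deposited, with trimmed means of 496.5 and 496.4 and 49.5% and 49.6% of all probe sets above the floor. The median log2 ratio over all measured genes was -0.008, and the central 95% of genes lay between -0.73 and 0.72. That width depended on brightness. Genes with a mean TA signal between 101.3 and 202.6 had a central 95% from -0.90 to 0.78, and genes above 6483.2 one from -0.50 to 0.53. A given ratio thus stands further outside the bulk of genes at high signal than at low signal. The median of the 668 genes above 6483.2 was -0.08.

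The targeted gene was the lowest of all 11556 genes by ratio. Hhatl had a signal of 1078.4 in the knockout pool against 5491.4 in the wild-type pool, on the only probe set for it. The sources used here do not say whether this probe set reads the deleted stretch. Hhatl lies on chromosome 9, and the 10 named genes on each side were taken from the order of genes in the RefSeq table (GRCm38.p6). Of these 20 genes, 18 had a probe set and 14 were measured, with a median log2 ratio of -0.15. Past 1.5-fold lay 1 gene in each direction. Ccdc13, directly next to Hhatl, had 62.4 in the knockout against 174.3, at least 1.72-fold lower and close to the floor on both arrays. Nktr had 1921.8 and 1220.9, 1.57-fold higher, while another of its 3 measured probe sets had a log2 ratio of -0.28. Klhl40, whose span overlaps that of Hhatl and which encodes a muscle protein that stabilises thin filament proteins, had 2906.1 and 3404.1, 1.17-fold lower. Higd1a, a mitochondrial inner membrane protein gene, had log2 ratios from -0.84 to -0.29 over its 3 probe sets.

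**Figure D1:**
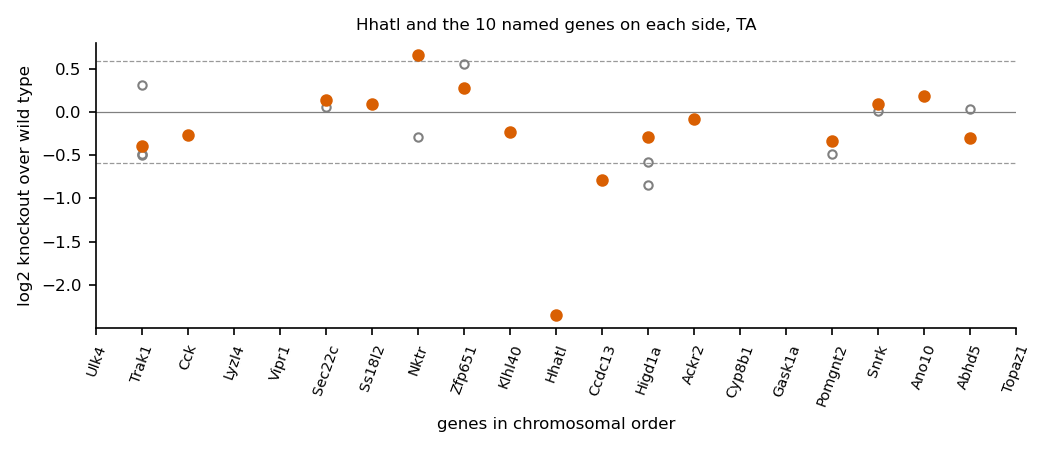
Log2 ratios of knockout over wild-type TA (vertical axis) for Hhatl and the 10 named genes on each side in chromosomal order (horizontal axis, not to distance); filled points are the probe set that stands for a gene, open points its other measured probe sets, and genes without a point were not measured. Hhatl lies at -2.35, and the other genes between -0.78 and 0.65.

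The response of TA was lopsided at large ratios and even at small ones. At 1.5-fold, 487 genes were higher in the knockout pool (4.21% of those measured) and 512 lower (4.43%), and at 2-fold 110 were higher (0.952%) and 106 lower (0.917%). At 3-fold the counts were 31 and 4, and at 4-fold 18 and 1, the last being Hhatl. The higher genes were also brighter. The median of the brighter of the 2 signals was 1103.2 over the 110 genes and 508.6 over the 106, against 690.9 over all measured genes. Of the 106 lower genes 47 stayed under 405.2, 4 times the floor, on both arrays, and of the 110 higher genes 20 did. Only 4 of the 110 and 10 of the 106 rested on a raised signal.

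Gene lists, chosen with earlier results of these data known, held part of both ends. Of the 110 higher genes, 45 belonged to lists of the ER or of the integrated stress response and its amino acid genes, and of the 106 lower genes 52 belonged to cell cycle lists. Of the 11556 measured genes, the ER lists hold 293, the integrated stress response and amino acid lists 196 and the cell cycle lists 227. At least 2-fold higher were 11.3% of the first and 7.14% of the second, against 0.952% of all genes. At least 2-fold lower were 22.9% of the cell cycle genes, against 0.917% of all. Another 18 of the higher and 6 of the lower genes were in other lists, and 47 and 48 were in none. The share of all measured genes in those other lists was not counted. The lists overlap, so their counts do not add up.

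**Figure D2:**
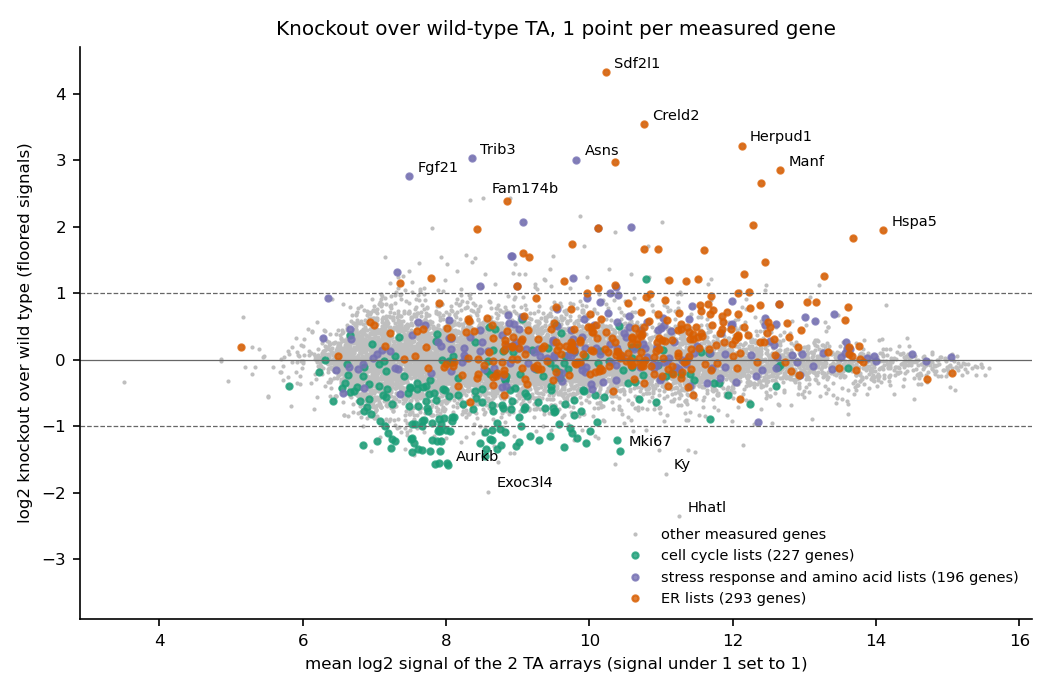
Each point is a measured gene, with the mean log2 signal of the TA arrays on the horizontal axis and the log2 ratio of knockout over wild type on the vertical axis; dashed lines mark 2-fold. Members of the ER lists (293 genes) spread upwards over the whole range of signals, and members of the cell cycle lists (227 genes) spread downwards, mostly at low signal.

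**Figure D3:**
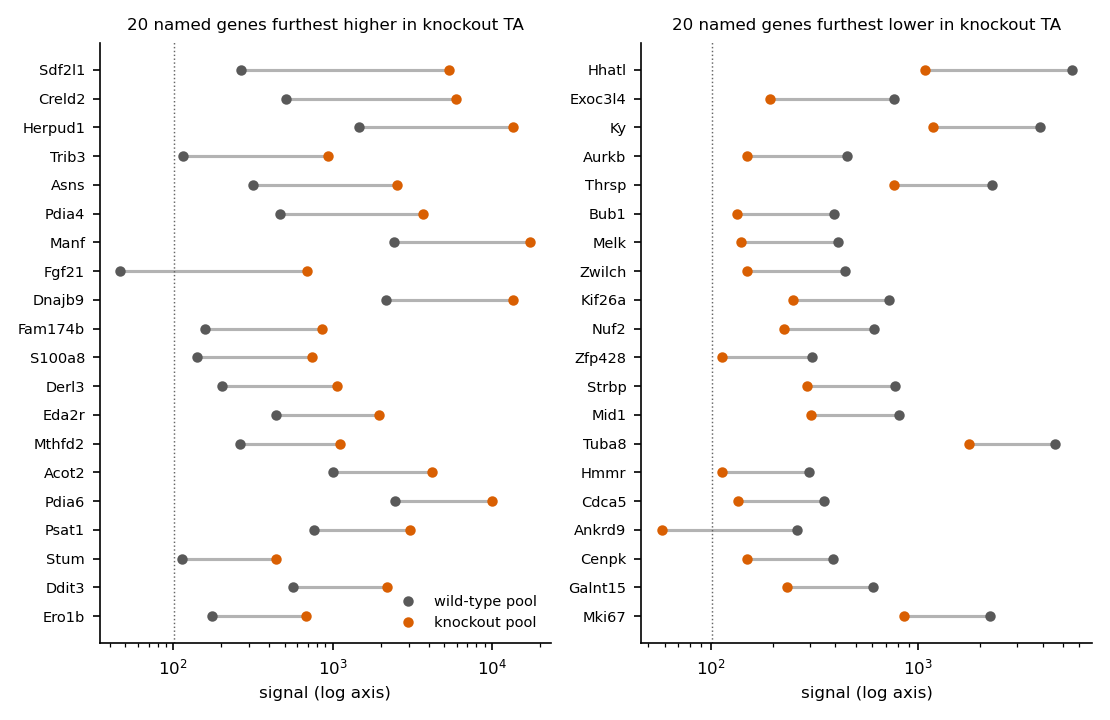
Signals (log axis) of the 20 named genes with the largest ratios in each direction, with grey points for the wild-type pool, orange points for the knockout pool and a dotted line at the floor of 101.3. Fgf21 and Ankrd9 are the genes whose lower signal lies under the floor.

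Genes of protein folding in the ER led the higher side. Signals are given from here on with the knockout pool first and the wild-type pool second. Sdf2l1, a cofactor of the ER Hsp70 system, had 5368.5 in the knockout against 268, the largest ratio of all genes. Creld2, a secreted ER protein, had 5936.5 and 510.1. Manf, a secreted ER stress protein, had 17358.2 and 2418.3. Dnajb9, a cochaperone of BiP, had 13553.3 and 2156.9. These 4 genes each had 1 measured probe set, and in all of them the dimmer array was well above the floor.

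The large chaperones of the ER lumen were higher as well. Hspa5, which encodes BiP, had 34481 against 8956.6, and Hsp90b1, the ER Hsp90, had 24771.2 against 6956.4. Hyou1, an ER relative of Hsp70, had 1578.9 against 471.6, and the cochaperone gene Dnajb11 3532.2 against 1116.4. In the list of ER Hsp70, Hsp90 and cochaperones, 31 of 34 members were measured. Of these, 15 were past 1.5-fold upwards, 12 of them past 2-fold, and 0 past 1.5-fold downwards, around a median log2 ratio of 0.55. Of the 8 higher members with several measured probe sets, 6 were past 1.5-fold on every one.

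Among sensors and transcription factors of the response the largest ratio was that of Ddit3. In the list of sensors and factors of the unfolded protein response, 21 of 22 members were measured, 9 of them higher by 1.5-fold or more and 0 lower by as much, and the median was 0.41. Ddit3, the gene of the factor CHOP, had 2207.3 in the knockout against 561.5. Dnajc3, an inhibitor of eIF2 kinases in the ER, had 4450.9 and 1920.6. Atf6 had 1941.8 and 888.1, Ppp1r15a, the phosphatase subunit that undoes eIF2 phosphorylation, 745.7 and 346.4, and Xbp1 6831.7 and 3378.1. The sensor kinase genes Ern1 and Eif2ak3 had log2 ratios of 0.24 and 0.20, short of 1.5-fold. Atf4 had 8585.7 and 4795.3, 1.79-fold higher.

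Disulfide isomerases and oxidases had a few members with large ratios and a median near 0. Of 26 measured genes of 30, 6 passed 1.5-fold upwards and 0 downwards, and the median was 0.08. Pdia4 had 3674.5 against 470.1, Pdia6 10008 against 2467.8 and Ero1b, an oxidase that recharges the isomerases, 681.6 against 175. Txndc11 was 1.80-fold, Pdia3 1.76-fold and P4hb, which encodes the founding isomerase of the family, 1.52-fold higher.

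ER-associated degradation, which returns misfolded proteins to the cytosol for the proteasome, had 10 of 43 measured members past 1.5-fold upwards and 0 downwards (median 0.32). Herpud1, a membrane scaffold of that pathway, had 13623.3 in the knockout against 1465.2, and 11460.6 and 986.8 on a further probe set. The ubiquitin ligase gene Syvn1 had 3109.4 and 979.1, and Sel1l, whose product holds that ligase in its complex, 5459.4 and 1748.4. Of the Derlin genes, which form the exit channel, Derl3 had the largest ratio, with 1059.1 against 203.1, while Derl2 and Derl1 were 1.92-fold and 1.83-fold higher. Selenos, a selenoprotein of the same complex, was 2.76-fold higher, and its 3 probe sets ran from 1.46 to 1.69 on the log2 scale.

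Genes of the entry and exit routes of the ER lay mostly above 0. Of 27 measured genes of protein translocation and signal peptide removal, 8 passed 1.5-fold upwards and 0 downwards, with 24 above 0 and a median of 0.37. The signal peptidase subunit genes Spcs2, Sec11c and Spcs3 had 7153 against 2919.4, 3347.9 against 1459.8 and 3925.4 against 1728.6. The translocon partner gene Sec63 was 2.11-fold higher. Srp54b was 2.23-fold higher, at 244.8 against 109.9, and it has near-identical copies from which the probes may not tell it apart. Among N-glycosylation genes 11 of 44 passed 1.5-fold upwards and 0 downwards (median 0.23), with the folding sensor gene Uggt1 at 1213.6 against 532.3, the mannosyltransferase gene Alg12 at 337.1 against 144.3 and the oligosaccharyltransferase subunit gene Ostc at 6134.6 against 3049.9. Gfpt1, the entry enzyme of hexosamine synthesis, was 1.78-fold higher. Among ER-Golgi transport genes 11 of 66 passed 1.5-fold upwards and 0 downwards, with 54 above 0 and a median of 0.31. Arfgap3 had 975.4 against 334.4, the coat genes Sec23b and Sec24b were 2.01-fold and 1.89-fold higher, and the cargo receptor gene Surf4 was 1.67-fold higher, past 1.5-fold on all 5 of its probe sets.

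Membrane lipid genes had a median near 0. Of 39 measured genes of phospholipid synthesis and ER membrane shape, 0 passed 1.5-fold upwards and 2 downwards (median -0.05). Pcyt2, an enzyme of phosphatidylethanolamine synthesis, had 257.7 in the knockout against 402.2, and Reep1, an ER-shaping protein gene, 3603.1 and 5412.9. Over the 8 ER lists together, 67 of 293 measured genes passed 1.5-fold upwards and 2 downwards around a median of 0.27.

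Promoters of these genes were searched for the ER stress element, the sequence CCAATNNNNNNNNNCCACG to which the factors NF-Y and ATF6 are known to bind, in the 250 bases before the start of each RefSeq gene (GRCm38.p6), on both strands. The element includes the CCAAT box, so the 2 searches overlap. It was found for 14 of the 9364 measured genes with a promoter in the table (0.15%) and for 35 of all 27025 genes there (0.13%). Among genes at least 2-fold higher in knockout TA it was found for 10 of 94 (10.6%), and among those at least 2-fold lower for 0 of 87. Read the other way, 11 of the 14 were at least 1.5-fold higher, and all 11 belonged to the ER lists. Creld2 and Alg12, which lie on opposite strands, share the same site, which is counted for both genes. Canx, a lectin chaperone gene of these 11, was 1.82-fold higher. The other 3 genes were Pan2 at 483 against 419.4, Acacb at 932.7 against 911.2 and Adcy3 at 302.2 against 399.7. A second form, ATTGG and CCACG with 1 base between them, was found for 6 measured genes, and Herpud1 was the 1 of them past 2-fold. The matches are letters in a window, and binding was not measured.

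The stretches around the element are printed for 6 of the higher genes, with Herpud1 for the second form, since they show its spacing and both orientations. They lie at Creld2 chr15:88819500-88819558 (plus strand), Derl3 chr10:75893222-75893280 (plus strand), Pdia6 chr12:17266471-17266529 (plus strand), Hspa5 chr2:34772005-34772063 (plus strand), Hsp90b1 chr10:86705523-86705666 (minus strand), Syvn1 chr19:6046512-6046570 (plus strand) and Herpud1 chr8:94386357-94386407 (plus strand), all in GRCm38.p6. Each is written along the strand of the gene, 5′ to 3′, with the fixed letters of the element in capitals.
Creld2: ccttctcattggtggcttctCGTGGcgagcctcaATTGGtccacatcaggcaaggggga
Derl3: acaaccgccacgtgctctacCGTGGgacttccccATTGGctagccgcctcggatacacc
Pdia6: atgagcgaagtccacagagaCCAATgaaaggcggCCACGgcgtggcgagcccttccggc
Hspa5: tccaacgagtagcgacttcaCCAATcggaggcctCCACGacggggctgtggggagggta
Hsp90b1: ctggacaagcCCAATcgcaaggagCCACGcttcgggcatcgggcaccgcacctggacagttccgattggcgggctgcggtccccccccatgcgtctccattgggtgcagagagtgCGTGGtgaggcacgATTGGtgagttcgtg
Syvn1: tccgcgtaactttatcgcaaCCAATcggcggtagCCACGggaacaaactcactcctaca
Herpud1: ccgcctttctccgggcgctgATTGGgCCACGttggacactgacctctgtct
In Hspa5, Pdia6 and Syvn1 the element reads in the direction of the gene, in Creld2 and Derl3 it reads on the opposite strand, and Hsp90b1 holds 1 copy of each. In Herpud1 the second form lies between 52 and 42 bases before the start.

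Genes of the integrated stress response and its amino acid branch were also among the higher genes, 34 of 196 measured at 1.5-fold (17.3%) and 14 at 2-fold. Trib3, a pseudokinase gene, had 938.3 in the knockout against 115, with the wild type close to the floor. Fgf21, a hormone gene that stressed muscle can release, had 686.9 and 46.5, and since the second lies under the floor the gene was at least 6.78-fold higher. Atf3 had 822.6 and 279.9. Chac1, an enzyme gene that degrades glutathione, had 1338.5 and 569.4. Of 36 measured regulators of that response 12 were at least 1.5-fold higher, among them Atf5 and Nupr1 at 2.0-fold and 1.97-fold, and 1 was lower, Ddit4l with a log2 ratio of -0.93. The median was 0.19.

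Amino acid synthesis and uptake followed in named steps. Asns, asparagine synthetase, had 2554.4 against 317.6. Psat1 and Phgdh of serine synthesis had 3061 against 764.7 and 1205.6 against 790.5. Mthfd2 and Aldh1l2 of mitochondrial folate metabolism had 1105.8 against 262.2 and 977.8 against 576.7. Aldh18a1, the entry enzyme of proline synthesis, had 1934 against 909, and Cth, which makes cysteine, 252.2 against 100.2, at least 2.49-fold higher. In this list 8 of 24 measured genes passed 1.5-fold upwards and 0 downwards (median 0.20), while 10 of its 34 members had no value in TA.

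Of 30 measured amino acid transporter genes, 4 passed 1.5-fold upwards and 0 downwards. Slc7a5, the large neutral amino acid transporter, had 830.7 against 281, and Slc3a2, its heavy chain partner, 1386.4 against 729.2. The glycine transporter gene Slc6a9 was 2.16-fold and the taurine transporter gene Slc6a6 1.58-fold higher, each with a further probe set short of 1.5-fold.

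Transfer RNA synthetases, which load amino acids onto tRNAs, were read by compartment. The cytosolic set had a median of 0.44, with 16 of 23 above 0, and the 4 genes past 1.5-fold, all higher, were Gars at 5524.7 against 2985.3, Cars, Lars and Vars. The mitochondrial set had a median of -0.05 over 16 measured genes and 0 past 1.5-fold, and its brightest member Iars2 had 1851.6 and 1927.6. Ribosome biogenesis genes had a median of 0.19, with 29 of 35 above 0 and 2 at least 1.5-fold higher, Myc at 1.58-fold and Rrp9 at least 1.90-fold. Translation factors had a median of 0.08 and 4 of 33 higher, led by Eif1a at 1.83-fold on both of its probe sets. These medians were not tested against each other.

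The C/EBP-ATF element TGATGNAA, at which ATF4 is known to bind with a partner, was found in the 250 bases before the start for 226 of 9364 measured genes (2.41%). In the lists of the integrated stress response and its amino acid genes it was found for 15 of 153 (9.80%), in the ER lists for 7 of 247 (2.83%), and among genes at least 2-fold higher for 6 of 94 (6.38%). Among genes at least 2-fold lower it was found for 2 of 87 (2.30%). The 6 were Herpud1, Asns, Fgf21, Atf3, Chac1 and Avil. The stretches of the 5 that belong to a gene list are printed to show the element, at Herpud1 chr8:94386297-94386344 (plus strand), Asns chr6:7693210-7693252 (minus strand), Fgf21 chr7:45615602-45615649 (minus strand), Atf3 chr1:191183416-191183463 (minus strand) and Chac1 chr2:119351029-119351076 (plus strand) in GRCm38.p6, along the strand of the gene with the fixed letters in capitals.
Herpud1: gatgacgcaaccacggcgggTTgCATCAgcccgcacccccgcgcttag
Asns: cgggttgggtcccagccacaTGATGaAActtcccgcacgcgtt
Fgf21: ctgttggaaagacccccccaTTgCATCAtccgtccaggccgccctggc
Atf3: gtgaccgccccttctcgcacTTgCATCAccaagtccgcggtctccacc
Chac1: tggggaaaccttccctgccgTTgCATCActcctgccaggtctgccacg
Asns holds the element in the direction of the gene, 23 to 16 bases before the start, and the other 4 hold it on the opposite strand. In Herpud1 it lies upstream of the second ER stress element printed above, so that gene carries both.

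Across the stress lists outside these pathways 29 of 271 measured genes (10.7%) were past 1.5-fold upwards and 9 (3.32%) downwards, and 10 and 0 at 2-fold, around a median of 0.09. The shares over all genes are the 4.21% and 4.43% given above. Cytosolic heat shock genes had 3 of 46 past 1.5-fold upwards and 0 downwards around a median of 0.05, and mitochondrial chaperones and proteases had 1 of 29 higher, Atf5, around -0.004. Hspa1a had 609.5 against 277.3 and Hspa1b 746.7 against 389.2, and these near-identical genes may share probes. Among p53 targets and growth arrest genes 5 of 28 were higher and 1 lower. Eda2r, a receptor of the tumour necrosis factor family, had 1966.3 against 442.4, and the cell cycle inhibitor gene Cdkn1a 2707.7 against 1166.7. The lower gene was Bbc3, a cell death gene, at 138.3 against 255.4. In the cell death list itself 0 of 29 genes were at least 1.5-fold higher and 3 were lower, Bbc3, Hrk and Ripk3, of which Ripk3 was at least 1.92-fold and Hrk at least 1.53-fold lower.

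Targets of the oxidative stress factor NRF2 had 4 of 36 higher and 2 lower. Gclm, which limits glutathione synthesis, was 1.80-fold higher, and Tkt, transketolase, had 1537.1 against 2904.8, lower on both of its probe sets. The immediate early list had 23 of 28 members above 0, a median of 0.34 and 6 at least 1.5-fold higher, with Fos at 1984.3 against 771 and Ccn2 at 2793.1 against 1579.7. Of the 20 measured clock genes, Nfil3 had 1035.2 against 478.6 and Cry1 677.5 against 359.1, Per1 was 1.84-fold higher, and Dbp, an output gene of the clock, had 675.1 against 1179.2. Of 29 genes that respond to glucocorticoids 6 were higher and 1 lower by 1.5-fold. Klf15 had 452.2 against 179.5 and Pdk4 14336.3 against 8969.8, whereas Sgk1 had 4153.3 against 6964.

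Of 198 measured genes of protein turnover 10 (5.05%) were past 1.5-fold upwards and 3 (1.52%) downwards, against 4.21% and 4.43% of all genes. Fbxo32, a ubiquitin ligase of muscle atrophy, had 2551.8 against 676.5 and had log2 ratios of 1.51, 1.56 and 1.92 on its 3 probe sets. Trim63, the partner ligase MuRF1, had a log2 ratio of 0.29 and Foxo1 one of 0.08. In that list 3 of 27 genes passed 1.5-fold upwards, Fbxo32, Eda2r and Klf15, and 0 downwards. Proteasome subunits had a median of -0.09, with 31 of 43 below 0. Autophagy and lysosome genes had 3 of 62 higher and 1 lower, with the cargo receptor gene Sqstm1 at 6309.3 against 3076.4 and the lysosome regulator Tfeb at 291 against 462.6. In insulin, IGF and myostatin signalling the adaptor gene Irs2 had 276.6 against 123.3, Eif4ebp1 was 1.55-fold higher and Igfbp5, a growth factor binding protein gene, 1.58-fold lower, with 50 of 53 genes short of 1.5-fold. Of the 16 measured hormone genes of muscle, Fgf21 alone was past 1.5-fold.

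Energy metabolism showed small shifts with a few large genes. Acot2, a mitochondrial acyl-CoA thioesterase gene, had 4233.9 against 1013.4, and its neighbour in sequence Acot1 444.5 against 227.8, and the probes may not separate these related genes. Among fatty acid genes 7 of 53 passed 1.5-fold upwards and 1 downwards, Ucp3. Oxidative phosphorylation and citrate cycle genes were flat and slightly low, with 75 of 86 below 0, a median of -0.11 and 0 past 1.5-fold. The brightest, Uqcrb, had 44273.3 and 47588.5. Under the alternative settings the median of this list ran from -0.13 to -0.06. Genes with a mean TA signal above 6483.2 had a median of -0.08 whatever their list, and the part of brightness was not tested. Glycolysis, glycogen and phosphagen genes had 33 of 44 below 0 and a median of -0.13. Pfkfb3, which makes the activator of phosphofructokinase, had 161.1 against 366.4, and both glycerol phosphate dehydrogenase genes were lower, Gpd2 at 2662.3 against 4376.1 and Gpd1 at 2099 against 3335. Ampd3 was 1.66-fold higher.

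Sterol and fatty acid synthesis split in direction, with 3 of 40 genes past 1.5-fold upwards and 6 downwards. Thrsp, a lipogenic regulator, had 762.4 against 2266.8, and its further probe set 408 against 1038.2. Sqle of sterol synthesis had 152.8 against 339.8, whereas Mvd of the same route had 260.9 against 109. Mvk was at least 2.27-fold lower on 1 probe set and had a log2 ratio of -0.09 on the other. Srebf2, the regulator of the route, had 270 against 165.8 on the probe set that stands for it and 129.2 against 196 on another, so its direction depends on the probe set.

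**Figure D4:**
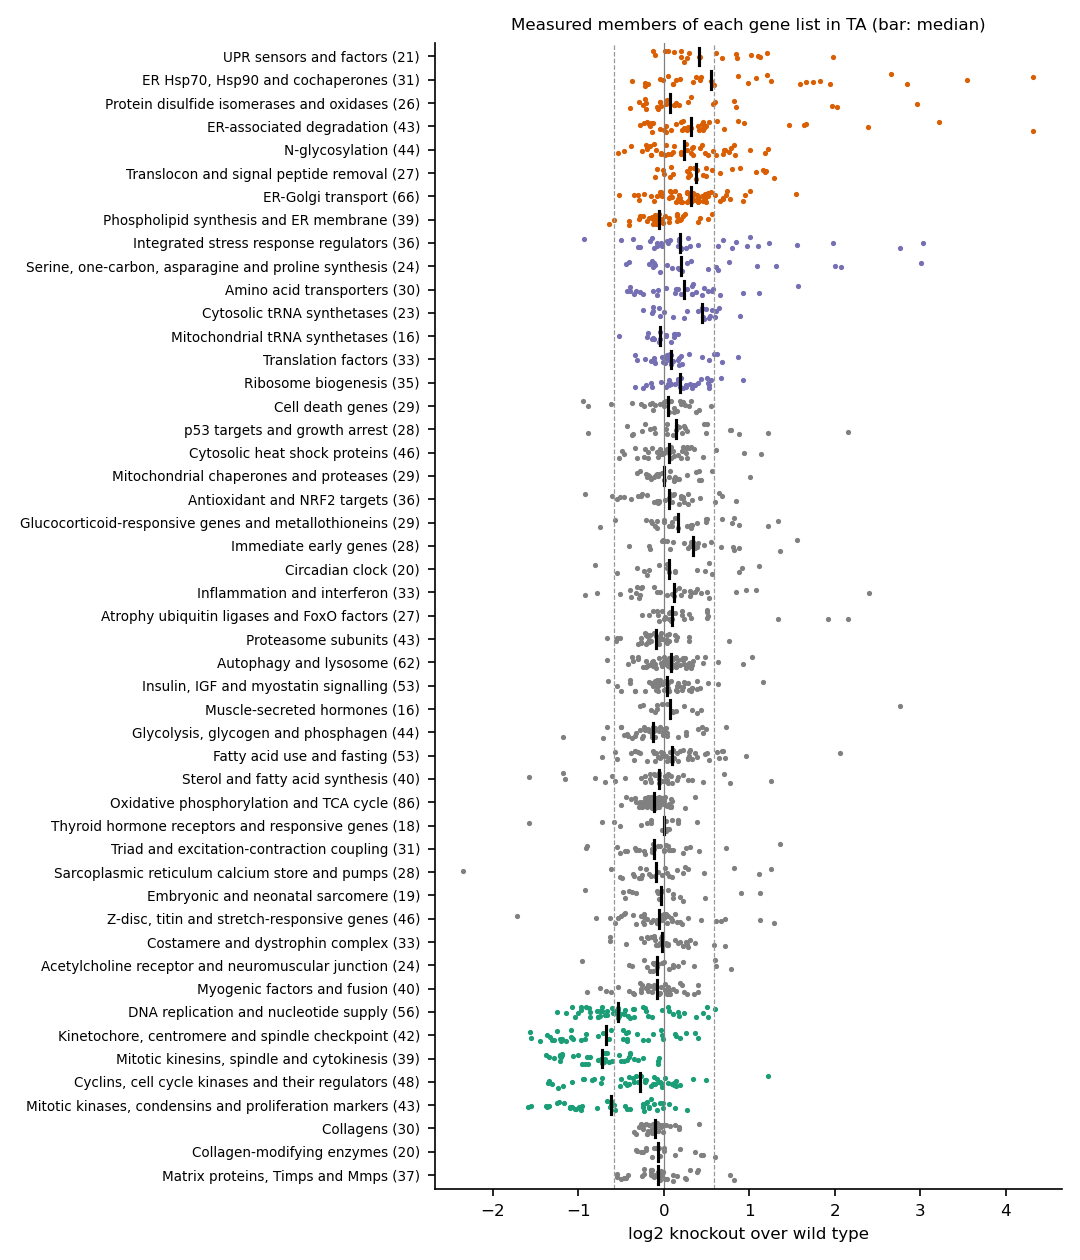
Log2 ratios of knockout over wild-type TA (horizontal axis) for the measured members of each gene list, with the number of measured members in brackets; bars are medians, dashed lines mark 1.5-fold, and height within a row has no meaning. ER lists are orange, integrated stress response and amino acid lists purple, cell cycle lists green and others grey. Most ER medians lie above 0, all 5 cell cycle medians lie below it, and the muscle and metabolic lists centre near 0.

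Across the muscle lists 210 genes were measured around a median of -0.06. Past 1.5-fold lay 16 upwards (7.62%) and 14 downwards (6.67%), the latter with Hhatl itself, against 4.21% and 4.43% of all genes. The calcium pump gene Atp2a2, the slow and cardiac form, had 13894 in the knockout against 6408.3, and Sln, a peptide inhibitor of the pump, 23922.3 and 13519.6. Calr, the luminal calcium-binding chaperone gene, had 15302.4 and 6427.7 and also belongs to the ER lists. In the other direction Trdn, the triadin gene of the junctional membrane, was 1.53-fold lower. Among triad genes Rrad had 1118.2 against 435.4, while Camk2b had 1115.2 against 2099.1 and Stac3, which is needed for excitation-contraction coupling, 1903.6 against 3562. Ky, a Z-disc protein gene, had 1184.4 against 3881.1, the third lowest ratio of all genes.

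Of 46 measured Z-disc, titin and stretch-responsive genes 5 passed 1.5-fold upwards and 3 downwards, with 28 below 0 and a median of -0.05. The higher ones included Ankrd1 at 812.7 against 332, Csrp3 at 8319 against 3811.1 and Xirp1 at 1224.7 against 744.4. The lower ones included Synm, an intermediate filament gene, at 1963.9 against 3409.1. Of 19 measured embryonic and neonatal sarcomere genes 2 were higher and 1 lower by 1.5-fold, around a median of -0.03. Myl4 had 6406.3 against 3417.3 and Mybph 2962.5 against 5613.8. Of 24 measured acetylcholine receptor and neuromuscular junction genes 3 were higher and 1 lower, around a median of -0.08. The lower gene was Lrp4, the agrin receptor, at 240.8 against 468.5, and Gadd45a had 3151.5 against 1834.4. No gene of the 40 measured myogenic and fusion genes was at least 1.5-fold higher and 4 were lower, Stac3, Mrtfa, Vgll3 and Sox6. In the costamere list 2 of 33 were higher, Sgcd at least 1.64-fold and Tln1 at 1.51-fold, and 2 lower, Dtna and Ank1.

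Hedgehog genes, listed because Hhatl resembles the acyltransferase of hedgehog ligands, showed 0 of 22 measured members past 1.5-fold. Among all measured genes 4.21% were higher and 4.43% lower by as much, so any list of 22 would hold few. The log2 ratios of the hedgehog genes ran from -0.34 to 0.39, and the pathway's target genes Ptch1 and Gli1 were at 0.12 and -0.09. Among the other 7 measured membrane-bound O-acyltransferases the ratios ran from -0.52 in Mboat1 to 0.12 in Mboat2. Collagens had 0 of 30 genes past 1.5-fold and a median of -0.10. Of 37 matrix protein, Timp and Mmp genes 2 were at least 1.5-fold higher (5.41%), Ccn2 and Timp4, and 0 lower. Of 20 collagen-modifying enzyme genes 1 was higher, P4hb, and 0 lower. Col1a1 had 14177.1 against 16439.7.

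Cell cycle genes were lower as 5 lists. In bulk RNA, fewer dividing cells and less of these transcripts in each cell cannot be told apart. Of the 227 measured genes of these lists 105 were at least 1.5-fold lower and 2 higher, and 52 were at least 2-fold lower, with a median of -0.53. Mitotic kinesins, spindle and cytokinesis genes had the lowest median, -0.72, with 39 of 39 below 0 and 26 at least 1.5-fold lower. Kinetochore and checkpoint genes had -0.68 with 23 of 42 lower, mitotic kinases and proliferation markers -0.61 with 22 of 43, DNA replication genes -0.53 with 23 of 56, and cyclins, cell cycle kinases and their regulators -0.28 with 12 of 48. With the floor at the 75th percentile of all signals, 471.5, fewer members were measured and the medians lay nearer 0. Signals under that floor were raised to it, which by itself shrinks the ratios of dim genes. These medians therefore do not show whether brighter cell cycle genes differed less. The medians at that floor were -0.37 over 15 kinesin and spindle genes, -0.35 over 12 kinetochore genes, -0.35 over 21 mitotic kinase genes, -0.36 over 35 replication genes and -0.13 over 31 cyclin genes. A raised signal lay behind 8 of the 42 kinetochore genes and 6 of the 43 mitotic kinase genes.

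The signals behind these ratios were modest. Aurkb, the kinase of the chromosomal passenger complex, had 150.3 in the knockout against 452.4. Bub1 of the spindle checkpoint had 133.6 and 394.5. Some brighter members were lower too, but they were picked by ratio and not by brightness. They included the proliferation marker Mki67 at 860.5 and 2219.2, Kif22 at 876.3 and 2034.7 and Top2a, the topoisomerase of mitosis, at 641.6 and 1524.9. Cdc20 had 607.1 and 1373 and Ccna2, cyclin A, 508.1 and 1259.3. Above 0 lay 11 of 48 cyclin list genes, 11 of 56 replication genes and 6 of 42 kinetochore genes. So did 3 of 43 mitotic kinase genes and 0 of 39 kinesin and spindle genes. In replication, the helicase subunit gene Mcm5 had 470.2 and 1040 and the ribonucleotide reductase gene Rrm2 712.7 and 1499.1.

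The genes of these lists counted as higher were Cdkn1a, an inhibitor of the cycle, and Mcm2. Mcm2 had 656.1 against 431.7 on the probe set that stands for it and 284 against 510.7 on the other, so its call rests on the choice of probe set.

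The cell cycle homology element TTTGAA, at which the DREAM and MuvB complexes are known to bind, was found in the 250 bases before the start for 1183 of 9364 measured genes (12.6%). In the cell cycle lists it was found for 55 of 186 genes (29.6%), from 15.2% of the replication list to 42.9% of the kinesin and spindle list. Among genes at least 2-fold lower it was found for 22 of 87 (25.3%) and among those at least 2-fold higher for 6 of 94 (6.38%). The CCAAT box, a short and frequent motif that often lies near it, was found for 40.3% of measured genes, 62.9% of the cell cycle genes, 58.6% of the lower and 54.3% of the higher genes. The E box CACGTG was found for 9.99% of measured, 3.45% of lower and 13.8% of higher genes. Stretches of 5 lower genes whose match lies within 50 bases of the start are printed to show that position, at Cdca5 chr19:6085057-6085096 (plus strand), Ube2c chr2:164769879-164769925 (plus strand), Cdc20 chr4:118437344-118437383 (minus strand), Ncapg chr5:45669875-45669920 (plus strand) and Kif11 chr19:37376342-37376381 (plus strand) in GRCm38.p6, along the strand of the gene with the matches in capitals.
Cdca5: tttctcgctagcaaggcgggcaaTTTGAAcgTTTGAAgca
Ube2c: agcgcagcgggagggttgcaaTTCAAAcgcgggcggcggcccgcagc
Cdc20: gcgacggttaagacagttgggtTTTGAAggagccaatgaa
Ncapg: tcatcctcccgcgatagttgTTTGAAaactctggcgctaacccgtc
Kif11: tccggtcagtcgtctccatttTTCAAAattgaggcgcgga
Cdca5, a regulator of sister chromatid cohesion, holds 2 matches. The ubiquitin-conjugating enzyme gene Ube2c and the kinesin gene Kif11 hold it on the opposite strand, and the anaphase activator gene Cdc20 and the condensin gene Ncapg in the direction of the gene. The signals of Ube2c were 338.9 in the knockout against 800.8.

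Markers of the tissue's cell types were measured beside these lists. All 20 fast fibre markers were measured, 19 of them below 0, with a median of -0.18 and summed signals of 564458 in the knockout against 650220. Myh2, the myosin of 2A fibres, was the only 1 past 1.5-fold, at 19299.4 against 29156.4. Under quantile normalization that median was -0.08. Slow fibre markers had 14 of 14 measured and a median of 0.01, with Atp2a2 and Csrp3 past 2-fold upwards and Myh7, the slow myosin, at -0.02. Of 14 heart muscle markers 5 were measured, with log2 ratios from 0.14 to 0.49, and Nppa, Myl7, Tnni3, Nkx2-5 and Gata4 lay under the floor on both arrays. Satellite cell markers, from a cell type that divides at this age, had 14 of 14 measured, 0 past 1.5-fold and a median of -0.03, with Pax7 at -0.28 and Myf5 at -0.03. Fibroblast, endothelial and pericyte markers had medians of -0.02, -0.01 and 0.02, with Smoc2, Egfl7 and Rgs5 1.69-fold, 1.68-fold and 1.59-fold lower. Macrophage markers had 18 of 19 measured, a median of 0.07 and 1 past 1.5-fold, Fcgr1, which was 1.54-fold higher. Of 10 red blood cell markers with a probe set 5 were measured, 4 of them below 0, with a median of -0.29 and summed signals of 11522.8 against 16793.4. Tfrc, the transferrin receptor that dividing cells also use, was 1.51-fold lower and lower on both probe sets, while the globin gene Hbb-b2 had a log2 ratio of 0.13 and Gata1 and Klf1 lay under the floor. The part of these markers in the cell cycle result was not tested.

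Among neutrophil markers S100a8 had 740 against 140.6 and S100a9 at least 1.94-fold more, at 196.8 against 96.8. The granule genes Camp, Ltf, Elane and Mpo, which define neutrophils, lay under the floor on both arrays, and 3 of the 14 markers with a probe set were measured. Of lymphocyte markers 1 of 12 was measured and of keratinocyte markers 2 of 9. White adipocyte markers had 0 of 6 past 1.5-fold, and Fabp4 had 21203.2 and 21937.4. Schwann cell and nerve markers had 0 of 9 past 1.5-fold. Brown adipocyte markers had 1 of 8, Fgf21, and cartilage, bone and tendon markers 2 of 12, Scx higher and Acan lower, around medians of 0.06 and -0.12.

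The pools also differed in transcripts of the sex chromosomes. Eif2s3y had 1603.4 in the knockout against 899.3, Uty 426.1 and 157.5 and Kdm5d 236.6 and 150.7, and Xist had a log2 ratio of -0.52. Among 377 measured genes of the X chromosome the median was -0.04, with 2.92% at least 1.5-fold higher and 5.04% lower. The part of this difference between the pools in the other results was not tested. Over the autosomes the share of genes at least 1.5-fold higher ran from 2.23% on chromosome 14 to 6.31% on chromosome 12, and of those lower from 3.08% on chromosome 13 to 6.17% on chromosome 2, and chromosome 9, which carries Hhatl, had 4.81% and 5.59%.

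Genes in none of the lists made up 47 of the 110 higher and 48 of the 106 lower genes. Among those with the largest ratios, Fam174b had 853 against 157.5, Stum 444.6 against 112.8, Cdk2ap2 1761.9 against 537.2 and Plcxd2 535.7 against 179.5. Some of the 47 belong to the ER by their known function and were picked out here after their values had been seen. Ficd, which adds AMP to BiP, had 545.3 against 197.4, Selenok 8035.4 against 3890.7, the ER membrane transporter gene Slc35b1 4770.8 against 2169.8 and Ufl1, a ligase that attaches UFM1, 1790.5 against 894.4. Fkbp11, which is in the chaperone list, had 941.3 against 311.2.

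On the lower side Exoc3l4 had 193.8 against 765.9, Kif26a 248.9 against 725 and Mid1 304.7 against 807. Tuba8, a tubulin gene, had 1751.3 against 4585.6 and log2 ratios of -1.39 and -1.28 on its 2 probe sets. Prkag3, a muscle subunit of the AMP-activated kinase, had 1254.2 against 3223.9, and Slc37a4, the glucose-6-phosphate carrier of the ER membrane, 1661.5 against 4251.2. Ankrd9 was at least 2.59-fold lower. Pclaf and Hells, picked out after their values had been seen, are known for DNA replication and chromatin and had 740 against 1670.3 and 170 against 385.8, so the list count of lower cell cycle genes leaves out some of that function.

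Probe sets of a gene read the same pooled RNA at different places of its transcripts, so they check the reading and not the mice. Of the measured genes 5173 had at least 2 measured probe sets, up to 12, and 6383 had 1. The SD of the log2 ratio within a gene was 0.26 over all of them and 0.24 over the 4108 genes brighter than 405.2, with a median range of 0.27. Across genes, which are not independent replicates, the ratios of the 2 brightest probe sets correlated at 0.58 (Pearson). In 161 genes the range was at least 1 on the log2 scale.

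Most genes past 2-fold that had several measured probe sets kept their direction on all of them. The counts include the probe set that made the call, and genes with 1 measured probe set could not be checked. Of the 110 higher genes 52 had several measured probe sets. Of these 52, 50 had all of them above 0, 36 had all past 1.5-fold and 21 all past 2-fold. Of the 106 lower genes 40 had several, and of these 40, 37 had all below 0, 18 all past 1.5-fold and 7 all past 2-fold. At 1.5-fold, 162 of 200 higher and 173 of 200 lower genes had all probe sets on 1 side of 0, and 77 and 63 had all past the threshold. The difference between the sides was not tested, and the lower genes were dimmer, as given above.

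The largest ratios that several probe sets all reached, ordered by the smallest ratio of a gene, were those of Herpud1, with log2 ratios of 3.22 and 3.54, Trib3, with 3.03 and 3.49, Asns, with 3.01 and 3.29, Mthfd2, with 2.08 and 2.52, and Acot2, with 1.94 and 2.06. Further down that order, Syvn1 had 1.67 and 1.72, and Ankrd1 1.29 and 1.32. On the lower side the order began with Thrsp, at -1.57 and -1.35, Aurkb, at -1.59 and -1.34, Tuba8, at -1.39 and -1.28, Pclaf, at -1.27 and -1.17, Ift122, at -1.21 and -1.08, and Top2a, at -1.25 and -1.01.

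Other genes had the same direction at unequal size. Hspa5 had 2.36, 1.94 and 0.76 on its 3 probe sets, the last with signals of 2528.5 and 1494.4. Dnajc3 ran from 0.86 to 2.63 over 5 probe sets, and the gene is represented by one at 1.21. Sel1l ran from 0.19 to 1.86 over 5, the lowest being the dimmest at 186.5 and 163.7. Calr had 1.25, 1.78 and 1.81, and Xbp1 ran from 0.60 to 1.31 over 4. Atp2a2 ran from 0.40 to 1.55 over 5, and its isoforms differ at the 3′ end, which the probe sets may read separately. Trdn ran from -1.02 to -0.19 over 6, and its 2 brightest probe sets were those nearest 0, so the 1.53-fold deficit given above holds for part of its transcripts' probe sets only.

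In 9 genes the probe sets passed 1.5-fold in both directions. They were Ssr1, Kdsr, Ezr, Mcm2, Taf1d, Cmss1, Rcor3, Srebf2 and Dctn4, and the direction of each depends on the probe set. Counts of genes take them by the probe set that stands for the gene, which puts Mcm2 and Srebf2 among the higher and Kdsr, Ezr and Cmss1 among the lower genes at 1.5-fold. Ssr1, a subunit of the translocon-associated complex, had 0.35, 0.82 and 1.29 on 3 probe sets and -0.67 or less on a dim one. Sec11c had 1.20 on a bright probe set and -0.18 on one with signals of 109 and 123.8. Strbp, which was 2.65-fold lower on the probe set that stands for it, ran from -0.61 to -0.02 on the other 5.

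**Figure D5:**
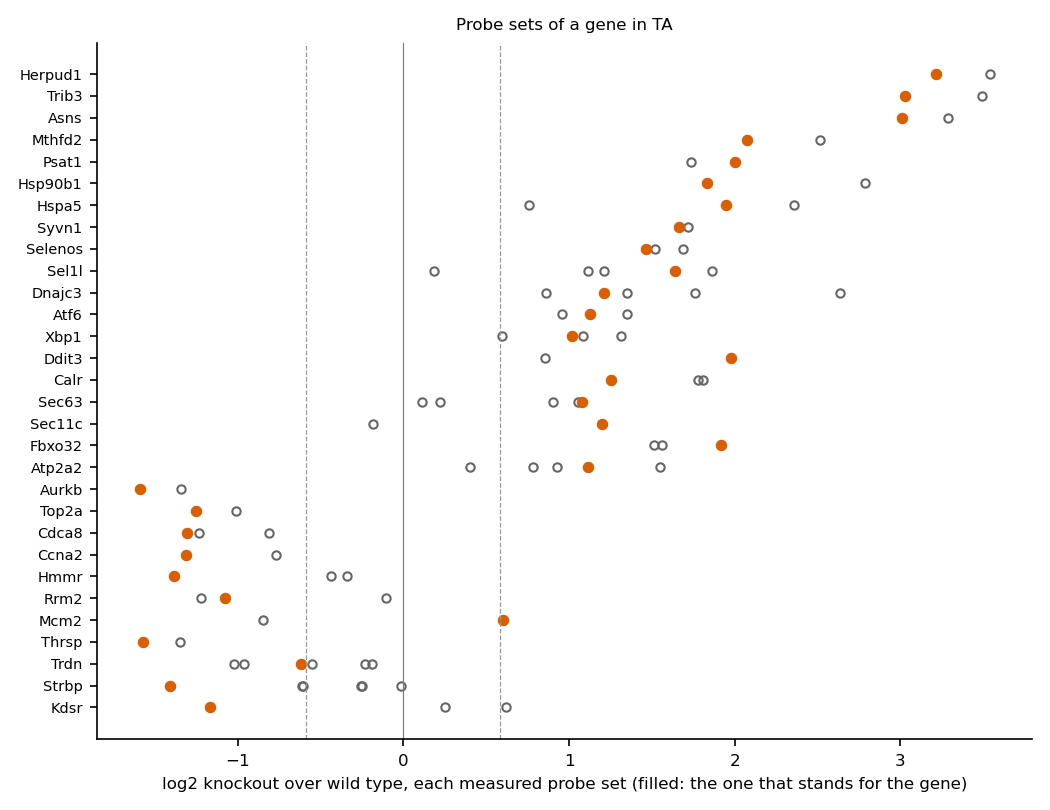
Log2 ratios of knockout over wild-type TA (horizontal axis) on every measured probe set of 30 named genes; filled points stand for the gene, open points are its other probe sets, and dashed lines mark 1.5-fold. Herpud1, Trib3 and Asns lie beyond 3 on both probe sets, while Mcm2 and Kdsr have probe sets on both sides of 0.

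Values of the heart, measured against its own wild-type pool, stood beside those of TA as follows, with no test of the difference. Of the 110 genes at least 2-fold higher in TA, 102 were measured in heart, where their median log2 ratio was 0.06 with 7 past 1.5-fold upwards and 3 downwards. Of the 106 lower genes, 99 were measured in heart, with a median of -1.13 with 71 past 1.5-fold downwards and 2 upwards. Over all 11556 genes measured in TA, 10815 were measured in heart. Their median there was -0.002, with 273 past 1.5-fold upwards and 446 downwards. The ER lists had a median of 0.27 in TA and -0.02 in heart, the integrated stress response and amino acid lists 0.16 and -0.05, and the cell cycle lists -0.53 and -0.77. Asns had a log2 ratio of 3.01 in TA and -0.11 in heart, and Mki67 -1.37 and -1.52.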

How the data were processed

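The authors' deposited signal intensities, 1 value for each of 45037 probe sets and 4 arrays, come from MAS5, as the submitters' processing notes name it. The sources used here give no MAS5 version, scaling target or detection call, and the intensities were used as deposited on their linear scale, and the depth of an array has no count. Probe sets were named from the platform's annotation table: 34945 had 1 gene symbol, 932 several and 9160 none. Ratios were computed in Python 3.11.15 with pandas 2.3.3 and numpy 2.4.6, and the computation was tested on simulated arrays with planted ratios.

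No test was made, because each group has 1 array. Genes were counted at 1.5-fold and 2-fold, and 68 gene lists were described by counts and medians, 36 of their symbols being updated to the annotation's. The members and lists were chosen with earlier results of these data known. Named were Hhatl and its neighbours, the 30 largest ratios in each direction, the 15 best supported by several probe sets, up to 8 members of a list past 1.5-fold (the 3 brightest where none was), and genes with opposed probe sets. Clone names were passed over. Genes outside this rule are named as list members behind a count or as picked afterwards. Alternatives were other floors, scalings and choices of probe set. Promoters came from RefSeq (GRCm38.p6) and were matched by symbol for 9364 measured genes. No probe position is printed, since the sources used here name no build for the array.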

Additional observations from a re-analysis of the deposited data

Results flagged for a closer look

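In 6 named genes the knockout pool differed from the wild type by at least 1.5-fold in opposite directions in TA and heart. With 1 array a group the difference between the tissues was not tested, and the values are the log2 ratio of TA minus that of heart. It was 4.92 for Sdf2l1 (4.32 in TA and -0.60 in heart), 2.62 for Psat1 (2.0 and -0.62), 2.27 for Slc7a5 (1.56 and -0.71) and 1.29 for Phgdh (0.61 and -0.68). It was -2.20 for Kif26a (-1.54 and 0.66) and -2.61 for Mettl7a2 (-1.35 and 1.26). For Srebf2 it was 1.65 (0.70 and -0.95) on the probe set that stands for it, but the other TA probe set had -0.60, which is not opposed to heart. Phgdh in TA ran from 0.35 to 0.68 over 4 probe sets, and their median, 0.55, is short of 1.5-fold. Several heart signals were dim, where ratios in TA spread widely. They were 156.1 against 236.5 for Sdf2l1, 170.3 against 273.7 for Phgdh and 229.5 against 375 for Slc7a5. Psat1 had 381.3 against 587.3, Mettl7a2 326.7 against 136.1 and Kif26a 1192.2 against 753.9.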

How the results depend on the processing

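Counts of genes followed the floor. With the floor at the 25th percentile of all signals (26.8), 368 genes were at least 2-fold higher and 415 lower, and 1259 and 1338 at 1.5-fold. A floor at the 75th percentile (471.5) gave 61 and 24, and 235 and 174. Fewer genes are measured under it, and raising dim signals to it shrinks their ratios by itself. Under centred ratios, quantile normalization, both arrays required at the floor, the median over probe sets, the probe set brightest in TA and no _x_at or _s_at probe sets, every count stayed within 1.5 times that given, 2-fold higher genes numbering 94 to 110 and lower ones 82 to 106. Of 263 named genes past 1.5-fold, 194 were measured under all 8 alternatives, of which 136 stayed past it in their direction under every one and 58 did not. The other 69 were not measured under at least 1, and 9 of these fell short under another. With the median over probe sets the log2 ratio turned for Psmf1 (-0.13), Kdsr (0.25), Ezr (0.21), Mcm2 (-0.12) and Cmss1 (0.0563), whose probe sets disagree in direction. Without _x_at and _s_at probe sets it turned for Mcm2 (-0.85), because another probe set then stands for that gene. The median of the lymphocyte list, 1 gene, turned to -0.0292 under both of these settings and to -0.53 with the probe set brightest in TA. No paired analysis was possible because each group has 1 array. With the floor at the 75th percentile 13 list medians moved by 0.1 or more on the log2 scale, among them those of the 5 cell cycle lists given above. The median of the sensors and factors of the unfolded protein response went to 0.61 there and to 0.30 with the median over probe sets.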
